A study of Mus musculus with 9 samples.

Results

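The genes described here are the Fc receptors and myeloid ITAM signalling genes of the retina, chosen by symbol: Fcgr1, Fcgr2b, Fcgr3, Fcgr4, Fcer1g, Syk, Fgr, Treml2 and Cd300lf, which are 9 of the 22337 genes in the table. RNA was sequenced from retinas at P28 in 3 groups of 3 libraries. WT retinas came from C57 BL/6J mice that were not treated. NS-treated rd10 retinas came from mice homozygous for a missense mutation in Pde6b, a rod phosphodiesterase subunit, that received 1 μl normal saline in each eye at P14 and P21. MSC-EVs (Exo)-treated rd10 retinas came from rd10 littermates given 1 μl of extracellular vesicles from human umbilical cord mesenchymal stem cells on the same days. Every rd10 group was therefore injected and the WT group was not, and the WT mice came from another supplier, so genotype, injection and source cannot be told apart in comparisons with WT. The sources give neither the sex of the mice nor whether a library held 1 retina or several, so p-values measure the spread between these libraries, which may be technical.

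Fc gamma receptors bind the constant part of IgG on myeloid cells. The activating receptors encoded by Fcgr1, Fcgr3 and Fcgr4 have no signalling motif of their own and pair with the common gamma chain encoded by Fcer1g, which carries an immunoreceptor tyrosine-based activation motif (ITAM). Src-family kinases such as Fgr phosphorylate the ITAM tyrosines, and the kinase Syk binds the phosphorylated motif and passes the signal on to phospholipase C and cytoskeletal effectors. The receptor encoded by Fcgr2b carries an inhibitory motif (ITIM) and recruits the phosphatase encoded by Inpp5d. CD300lf is a lipid-binding receptor with ITIMs, and TREML2 belongs to the TREM family of myeloid receptors. In the retina, microglia and incoming monocytes are the cells known to use these genes.

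The coding sequences that separate activation from inhibition in this set are shown first, read from the GENCODE M21 annotation and transcripts on GRCm38, with the tyrosine codons in capitals. An ITAM was searched as a tyrosine codon followed, after any pair of codons, by a leucine or isoleucine codon, and the same again 6 to 8 codons later. Among the 9 genes only Fcer1g held this pattern, at residues 65 to 79 of 86, across an exon junction. In the whole annotation 618 of 21764 coding genes (2.84%) held it.
Fcer1g ITAM, chr1:171229889-171230072, minus strand: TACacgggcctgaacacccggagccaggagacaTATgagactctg
An ITIM was searched as a codon for isoleucine, valine, leucine or serine, any codon, tyrosine, any pair of codons and isoleucine, valine or leucine. This looser pattern was present in 48.7% of coding genes, so a match is only a description, and matches also lay in Fcgr1, Fcgr4 and Fcer1g. The matches in the inhibitory receptors Fcgr2b (residues 317 to 322 of 340) and Cd300lf (residues 232 to 237 and 280 to 285 of 330) were as follows.
Fcgr2b ITIM, chr1:170961071-170961088, minus strand: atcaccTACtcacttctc
Cd300lf first ITIM, chr11:115117648-115117665, minus strand: ctctgtTATgcagacctg
Cd300lf second ITIM, chr11:115117112-115117129, minus strand: gtttcaTATgccgctctg

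The genes lie at a small number of sites on GRCm38. Fcgr2b (chr1:170958617-170976547, minus strand), Fcgr4 (chr1:171018920-171029761, plus strand), Fcgr3 (chr1:171051174-171064935, minus strand) and Fcer1g (chr1:171229572-171234365, minus strand) stand close together on chromosome 1. Fcgr1 is at chr3:96282909-96293969 on the minus strand, Fgr at chr4:132974095-133001910 on the plus strand and Cd300lf at chr11:115116214-115133992 on the minus strand. Syk is at chr13:52583173-52648792 and Treml2 at chr17:48299498-48312533, both on the plus strand. Fcgr2b and Fcgr3 share transcript sequence: 166 stretches of 50 bases are found in both, of 5685 in Fcgr2b and 1733 in Fcgr3. For Fcgr3 this was 9.58% of its stretches and all that it shared with other genes. For Fcgr2b, 6.95% of the stretches occur in some other gene, of which those found in Fcgr3 are a part. Reads from the stretches found in both had to be split by estimation, which leaves the balance of Fcgr2b and Fcgr3 uncertain. For Cd300lf the shared part was 2.44%, mostly with Cd300ld, and for the other 6 genes it was 0.

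Because the genes were all higher in rd10 than in WT, their promoters were searched for the core GAGGAA of the binding site of PU.1, the transcription factor that sets the myeloid lineage, on both strands and from 250 bases before to 50 after each RefSeq start (GRCm38.p6). Windows were found for 8 of the 9 genes. The core was present in 6 of these 8 (Fcgr1, Fcgr3, Fcgr4, Syk, Fgr and Cd300lf), against 31.3% of 27025 genes with a window. In Syk it lay at the second start and not at the first, and in Fgr at bases 32 to 37 counted from the start. Fcgr2b and Fcer1g had no match. Promoters of the Fc receptor genes with a match and of Cd300lf are given as the 100 bases before the start, read along the gene, with the core or its reverse complement TTCCTC in capitals. The promoter of Fcer1g, with no match, is given for contrast.
Fcgr1, chr3:96293970-96294069, minus strand: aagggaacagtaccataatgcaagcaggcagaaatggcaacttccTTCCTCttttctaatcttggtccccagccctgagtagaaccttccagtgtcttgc
Fcgr3, chr1:171059404-171059503, minus strand: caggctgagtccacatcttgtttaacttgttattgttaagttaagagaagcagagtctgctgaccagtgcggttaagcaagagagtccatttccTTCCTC
Fcgr4, chr1:171018826-171018925, plus strand: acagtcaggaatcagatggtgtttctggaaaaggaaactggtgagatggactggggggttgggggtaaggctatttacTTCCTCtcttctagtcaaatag
Cd300lf, chr11:115133993-115134092, minus strand: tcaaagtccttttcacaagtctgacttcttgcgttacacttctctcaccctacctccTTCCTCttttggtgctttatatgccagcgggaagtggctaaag
Fcer1g, chr1:171234350-171234449, minus strand: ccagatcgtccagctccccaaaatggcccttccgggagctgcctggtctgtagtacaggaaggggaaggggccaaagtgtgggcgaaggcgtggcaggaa
In these 4 promoters with a match the core began between 55 and 6 bases before the start. No match in a window says only that these letters are absent there. Spi1, which encodes PU.1, was picked after its values were seen. It rose 18.8-fold in NS-treated rd10 against WT (log2 fold change 4.23, SE 0.41, edgeR adjusted p = 2.82e-06). It had only 5, 1 and 5 counts in the WT libraries, so its fold change rests on WT values near the detection limit. Binding of PU.1 was not measured, and its part in the rise of the 9 genes was not tested.

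The libraries held between 19491717 and 62532343 estimated counts, and MSC-EVs replicate 3 was the deepest. Counts on 4 Y-linked genes were 4379 and 4421 in MSC-EVs replicates 1 and 2 and between 7 and 23 in the other 7 libraries, so the MSC-EVs group mixed libraries with and without Y-linked expression. Replicates of the same group differed by more than sampling noise in every pair. Retinal identity was checked with rod genes: all 8 rod markers were detected in WT and were lower in NS-treated rd10, with a median log2 fold change of -1.72.

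**Figure D1:**
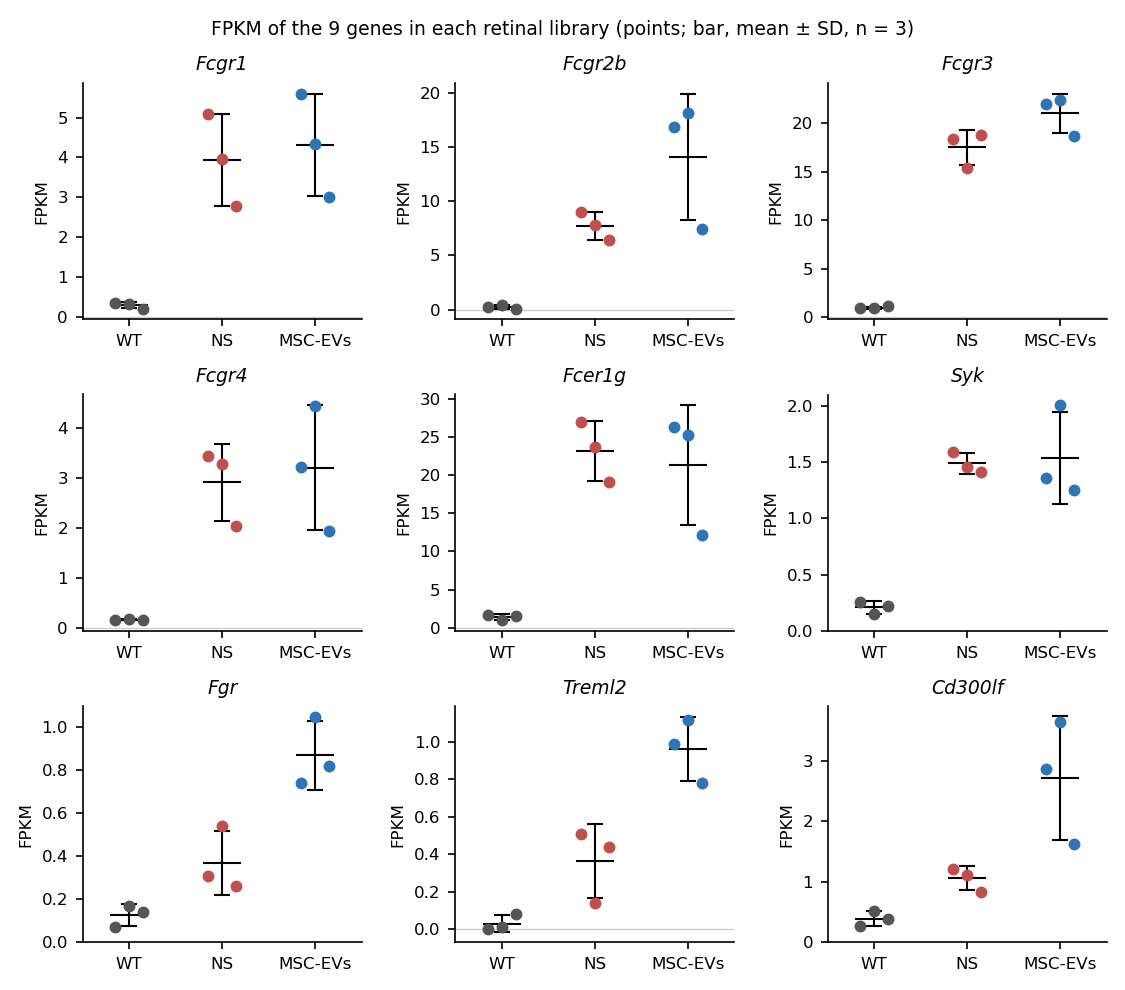
FPKM (fragments scaled to transcript length and library depth, vertical axes from 0) of the 9 genes in each library, by group, with the mean and SD of 3 libraries as bars. All WT libraries sit below all rd10 libraries for each gene, and Fgr, Treml2 and Cd300lf are higher in each MSC-EVs library than in each NS library.

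In WT retina all 9 genes were at low level. FPKM, which scales a gene to its transcript length and the library's depth, allows levels to be compared between genes. In WT the highest mean was that of Fcer1g, 1.41 FPKM ± 0.364 (SD, n = 3), followed by Fcgr3 with 1 FPKM ± 0.11, and their libraries overlapped. The other 7 genes lay below both, from 0.393 FPKM for Cd300lf down to 0.03 for Treml2, and each overlapped its neighbour in this order. At this depth Fcgr4 rested on 4 or 5 counts per WT library and Treml2 on 0, 1 and 7, so WT levels of these genes were near the detection limit.

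The first comparison asked how the genes differed between degenerating and healthy retina. All 9 genes rose in NS-treated rd10 against WT, by 2.44-fold to 26.5-fold, and every NS library was above every WT library for each of them. Genes were taken as differentially expressed when edgeR's quasi-likelihood test gave an adjusted p under 0.05 and the log2 fold change was 1 or more in size. Of all 14644 genes tested, 9.16% were differentially expressed and higher, and 33.7% had every NS library above every WT library. The median log2 fold change was 3.25 for the 9 genes and 0.01 for all genes tested. The receptors for IgG, their adaptor Fcer1g and Treml2 rose by over 9-fold, whereas the smallest rises were those of Fgr and Cd300lf.

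Among the activating receptors, Fcgr3, the low-affinity receptor for IgG, was the most abundant. It stood at 0.95, 0.93 and 1.13 FPKM in the WT libraries and at 18.32, 15.42 and 18.76 in the NS libraries. The groups were far apart and the NS libraries close to each other, and the rise was 15.4-fold (log2 fold change 3.94, SE 0.14, adjusted p = 1.23e-09). Fcgr4, a receptor for IgG found on mouse monocytes, neutrophils and macrophages, was at 0.16, 0.17 and 0.15 FPKM in WT and at 3.43, 3.27 and 2.03 in NS. It rose 15.8-fold (log2 fold change 3.99, SE 0.35, adjusted p = 1.27e-06), with NS replicate 3 the lowest. Fcgr1, the high-affinity receptor, was at 0.35, 0.31 and 0.20 FPKM in WT and at 5.08, 3.95 and 2.79 in NS. Its rise was smaller, 9.52-fold (log2 fold change 3.25, SE 0.31, adjusted p = 3.56e-06).

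Fcgr2b, the inhibitory receptor, had the largest rise of the 9. Its values were 0.26, 0.39 and 0.08 FPKM in WT and 8.96, 7.78 and 6.38 in NS. The groups did not approach each other, and the fold change was 26.5 (log2 fold change 4.73, SE 0.25, adjusted p = 1.83e-08), although the WT level rested on 6 to 15 counts per library.

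Fcer1g, the ITAM adaptor of the activating receptors, was the most abundant of the 9 genes in NS-treated rd10, at 23.2 FPKM ± 3.96 (SD, n = 3). It went from 1.66, 0.99 and 1.57 FPKM in WT to 26.97, 23.67 and 19.08 in NS, a rise of 14.6-fold (log2 fold change 3.87, SE 0.21, adjusted p = 2.51e-08). In NS the order of means was Fcer1g, Fcgr3, Fcgr2b, Fcgr1, Fcgr4, Syk, Cd300lf, Fgr and Treml2. Neighbours in this order overlapped only between Fcgr1 and Fcgr4 and between Fgr and Treml2.

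The kinases had smaller fold changes than the Fc gamma receptors and Fcer1g, a difference that was not tested. Syk was at 0.26, 0.15 and 0.22 FPKM in WT and at 1.59, 1.46 and 1.41 in NS, and rose 6.14-fold (log2 fold change 2.62, SE 0.21, adjusted p = 5.47e-07). The NS libraries lay within a narrow range. Fgr was at 0.07, 0.17 and 0.14 FPKM in WT and at 0.31, 0.54 and 0.26 in NS. It rose 2.99-fold (log2 fold change 1.58, SE 0.39, adjusted p = 0.00411), from 5 to 10 counts per WT library.

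Treml2 was at 0, 0.01 and 0.08 FPKM in WT and at 0.51, 0.14 and 0.44 in NS. Its rise of 9.16-fold had the widest error (log2 fold change 3.20, SE 0.75, adjusted p = 0.00395), and the log2 value was 5.42 without WT replicate 3, the library with 7 of the WT counts. Cd300lf was at 0.27, 0.52 and 0.39 FPKM in WT and at 1.22, 1.12 and 0.84 in NS, the smallest rise of the set at 2.44-fold (log2 fold change 1.29, SE 0.32, adjusted p = 0.00365). On the log2(FPKM + 1) scale, which compresses values this low, limma gave Fgr, Treml2 and Cd300lf log2 differences of 0.28, 0.39 and 0.56, and they were then no longer among the differentially expressed genes.

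**Figure D2:**
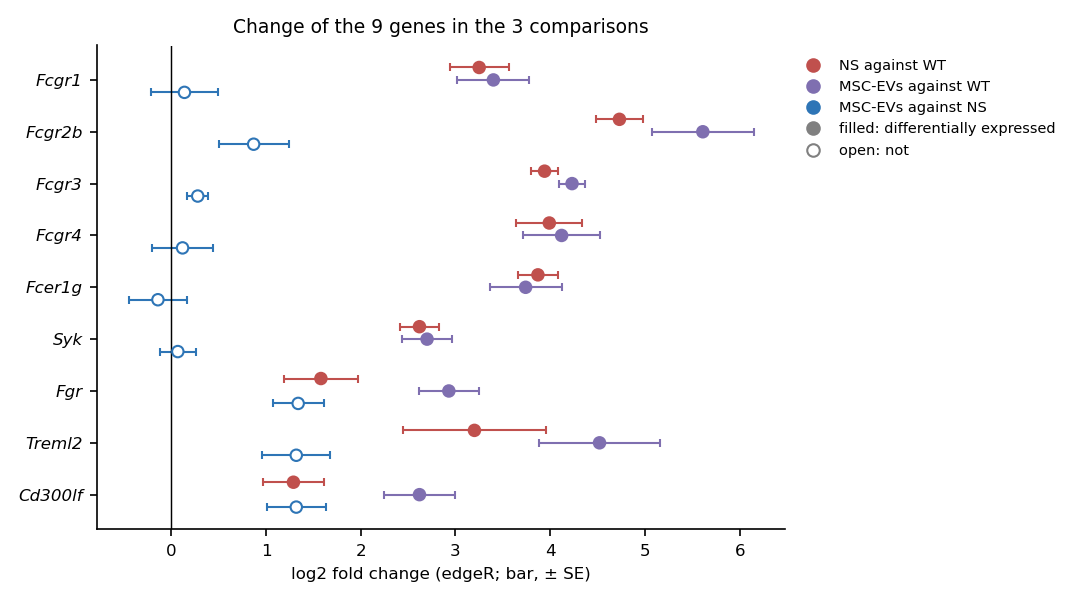
Log2 fold changes (horizontal axis) of the 9 genes in the 3 comparisons, with bars of 1 SE and filled points for differentially expressed genes. Both comparisons with WT lie between 1.29 and 5.61 for each gene, while MSC-EVs against NS lies between -0.14 and 1.34 with no filled point.

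The rise of these genes was set beside that of the cells known to carry them. Of 15 microglia markers, 14 rose in NS-treated rd10, with a median log2 fold change of 1.77, and Sall1 was the exception (log2 fold change 0.69, adjusted p = 0.013). Their summed level was between 94.9 and 99.3 CPM (counts scaled to library size) in WT and between 472 and 571 in NS. In bulk retina, more cells of a type and more RNA per cell cannot be told apart. Of 10 monocyte and macrophage markers tested, 7 rose, among them Ccr2 with 95 counts over the NS libraries against 2 over the WT libraries, and Plac8 with 205 against 1. The median log2 fold change of those tested was 4.32, with a range of -0.30 to 7.03. Ccr2, Ly6c2, Plac8 and Chil3 had only 1 or 2 counts over the WT libraries, which makes their fitted values imprecise. The summed level of the 12 markers listed overlapped between the groups, at 98.5 to 110 CPM in WT and 109 to 141 in NS. The part of microglia and monocytes in the rise of the 9 genes was not tested.

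Divided by the summed microglia markers of the same library, 5 of the 9 genes were still higher in every NS library than in every WT library: Fcgr2b by 5.25-fold, Fcgr4 by 2.94-fold, Fcgr3 by 2.87-fold, Fcer1g by 2.76-fold and Fcgr1 by 1.78-fold. Of all genes tested, 1.8% had a ratio above WT in every NS library and 95% had a ratio below it. Cd300lf was lower in every NS library, at 0.46 of the WT ratio, and Syk, Fgr and Treml2 overlapped. Each of the 6 genes without overlap had an exact permutation p of 0.1 (two-sided), the smallest that 3 against 3 libraries allow, and an adjusted p of 0.169 over the 9 genes and 3 comparisons. No call can therefore be made on these ratios, and their direction for the Fc receptors was that of the counts.

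Summed markers of neutrophils, T and NK cells and B cells were low, and higher in every NS library than in every WT library. The neutrophil genes Camp, Elane, Ltf, Ly6g, Mpo and Ngp did not exceed the floor of 3 counts in any library, and the summed level of 12 neutrophil markers was between 0.806 and 1.1 CPM in WT and between 5.05 and 8.28 in NS. Only Csf3r of this list was tested by edgeR, and it rose (log2 fold change 2.89, adjusted p = 3.81e-06), while DESeq2 called 3 of the 12. The mast cell genes Cpa3, Mcpt4, Mrgprb2, Tpsab1 and Tpsb2, the B cell genes Blk and Cd79a and the NK cell gene Ncr1 did not exceed the floor either. The summed level of 10 T and NK cell markers was between 1.03 and 1.62 CPM in WT and between 4.17 and 7.27 in NS. Cd8a, the only gene of that list tested, rose (log2 fold change 1.23, adjusted p = 0.00392), and DESeq2 called 7 of the 10. The summed level of 8 B cell markers was between 1.16 and 1.71 CPM in WT and between 1.97 and 2.5 in NS. The only B cell gene tested was not differentially expressed by edgeR's test (log2 fold change 0.30), and DESeq2 called 1 of the 8. The summed level of 8 mast cell markers was lower in NS, between 22.1 and 26.3 CPM in WT and between 12.5 and 15.5 in NS, nearly all of it from Kit and Hdc. The part of these cells in the rise of the 9 genes was not tested.

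**Figure D3:**
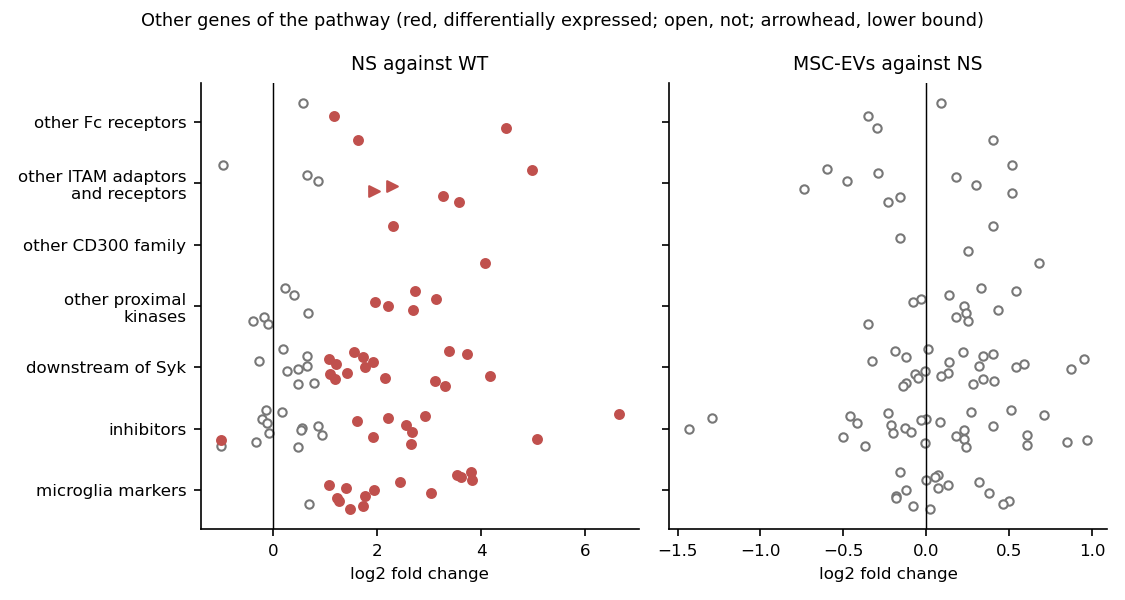
Log2 fold changes (horizontal axes, 1 point per gene tested) of 6 lists of other pathway genes and of the microglia markers, for NS against WT and for MSC-EVs against NS; red marks differentially expressed genes and arrowheads mark lower bounds for genes without WT counts. Red points are frequent in NS against WT, for example 15 of 23 genes downstream of Syk, and absent in MSC-EVs against NS.

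The rest of the pathway showed where else in the cascade transcripts differed. Of the other Fc receptors, 3 of 4 tested rose in NS-treated rd10: Fcrls, an Fc receptor-like gene of microglia, by 22.2-fold (adjusted p = 2.77e-09), the neonatal receptor Fcgrt and the cytosolic antibody receptor Trim21. The IgE receptor subunits Fcer1a and Ms4a2 did not exceed 3 counts in any library. None of the 3 immunoglobulin genes tested, Ighm, Ighg2c and Jchain, was differentially expressed by edgeR's test (Ighm, at log2 fold change 0.83 and adjusted p = 0.0145, stayed under the fold limit), and 7 immunoglobulin genes, including Ighg1, Ighg2b and Ighg3, did not exceed 3 counts in any library.

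Of the other ITAM adaptors and paired receptors, 5 of 8 tested rose. Tyrobp, the DAP12 adaptor, rose 11.9-fold (log2 fold change 3.58, SE 0.15, adjusted p = 4.1e-09), and Trem2, a lipid receptor that signals through it, rose 9.67-fold. Clec7a, the receptor for fungal beta-glucan, rose 31.3-fold (log2 fold change 4.97, SE 0.26, adjusted p = 2e-08). Trem1 and Sirpb1c had no count in WT and 38 and 51 counts over the NS libraries, which makes them at least 3.85-fold and 4.88-fold higher against a floor of 3 counts per library (adjusted p = 0.000315 and 0.000196). The median log2 fold change of this list was 3.42 as fitted and 2.12 with these genes at their bounds. Both CD300 relatives tested, Cd300a and Cd300c2, rose as well (log2 fold changes 2.30 and 4.07).

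Among 11 other proximal kinases tested, 5 rose. The myeloid kinase Lyn rose 6.5-fold (log2 fold change 2.70, SE 0.15, adjusted p = 2.25e-08) and Btk 6.7-fold, which compares with 6.14-fold for Syk. The T cell kinase Lck also rose, from 0.389 CPM in WT to 1.8 CPM in NS. The broadly expressed kinases Fyn, Src and Yes1 had log2 fold changes of 0.41, 0.67 and -0.38. Downstream of Syk, 15 of 23 genes tested rose, with a median log2 fold change of 1.22. They included Plcg2, the phospholipase that follows Syk, with 2.67-fold (adjusted p = 0.000154), and the haematopoietic GTPase Rac2 with a log2 fold change of 4.18.

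Genes listed as inhibitors of ITAM signalling rose too. Of 22 tested, 9 rose and 1, Siglece, fell (to 0.499 of the WT level, adjusted p = 0.0381, from 1.22 to 0.6 CPM). Of the phosphatases that ITIMs recruit, Inpp5d rose by 5.88-fold (log2 fold change 2.56, SE 0.18, adjusted p = 3.03e-07) and Ptpn6 by 3.81-fold (log2 fold change 1.93, SE 0.35, adjusted p = 0.000501), whereas the broadly expressed Ptpn11 had a log2 fold change of -0.07 (adjusted p = 0.238). The sialic acid receptor Siglec1, also in this list, rose 33.7-fold (edgeR adjusted p = 8.08e-05). It had only 1, 5 and 3 counts in the WT libraries, and NS replicate 1 (8.15 CPM) was above the others (3.38 and 2.88 CPM). Cd22, a sialic acid receptor best known from B cells, had 1 count over the WT libraries and 154 over the NS libraries, a ratio of 139 with a 95% exact counting interval of 24.5 to 5506.

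The second comparison asked whether the vesicles changed these genes in rd10 retina. None of the 9 genes was differentially expressed between MSC-EVs-treated and NS-treated rd10 in edgeR's test. Of 14765 genes tested, 8 (0.0542%) were differentially expressed and higher with MSC-EVs, and 1 (0.00677%) was lower. Fgr, Treml2 and Cd300lf were 2.49-fold to 2.54-fold higher with MSC-EVs but did not pass the limit (edgeR adjusted p = 0.0516, 0.095 and 0.0714). Fcgr1, Fcgr4, Fcer1g and Syk had log2 fold changes between -0.14 and 0.14. Unadjusted p was under 0.05 for 4 genes (Fgr, Treml2, Cd300lf and Fcgr3).

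Fgr was at 0.31, 0.54 and 0.26 FPKM in NS and at 0.74, 1.05 and 0.82 with MSC-EVs. Every MSC-EVs library was above every NS library, and the log2 fold change was 1.34 (SE 0.27, adjusted p = 0.0516). Treml2 was at 0.51, 0.14 and 0.44 FPKM in NS and at 0.99, 1.12 and 0.78 with MSC-EVs. Its groups did not overlap either (log2 fold change 1.32, SE 0.36, adjusted p = 0.095). Cd300lf was at 1.22, 1.12 and 0.84 FPKM in NS and at 2.87, 3.64 and 1.62 with MSC-EVs, with MSC-EVs replicate 3 the nearest to NS (log2 fold change 1.32, SE 0.31, adjusted p = 0.0714). By the Wald test of DESeq2 these 3 genes were differentially expressed, with adjusted p of 0.0076 for Fgr, 0.0245 for Treml2 and 0.00493 for Cd300lf. With the quasi-likelihood test of edgeR, Fgr and Cd300lf were called with all 9 libraries in one fit (adjusted p = 0.0199 and 0.0283) and with the replicate block (adjusted p = 0.0388 and 0.032), and Fgr without the filter on low counts (adjusted p = 0.0397). Leaving out a single library also gave a call for Fgr (without MSC-EVs replicate 2, adjusted p = 0.0488) and for Cd300lf (without MSC-EVs replicate 3, adjusted p = 0.0252). Over all alternatives the adjusted p ran from 0.0076 to 0.22 for Fgr, from 0.0245 to 0.299 for Treml2 and from 0.00493 to 0.353 for Cd300lf.

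The Fc gamma receptors were less even. Fcgr2b was at 8.96, 7.78 and 6.38 FPKM in NS and at 16.82, 18.15 and 7.47 with MSC-EVs. MSC-EVs replicates 1 and 2 were above each NS library and replicate 3 was within the NS range (log2 fold change 0.87, SE 0.37, adjusted p = 0.265). Without replicate 3 Fcgr2b was differentially expressed (log2 fold change 1.19, adjusted p = 0.00872), and Cd300lf was too (1.60, adjusted p = 0.0252). Without MSC-EVs replicate 2, Fgr was (1.24, adjusted p = 0.0488). Fcgr3 was at 18.32, 15.42 and 18.76 FPKM in NS and at 21.95, 22.37 and 18.67 with MSC-EVs. In CPM every MSC-EVs library was above every NS library, in FPKM replicate 3 was not, and the log2 fold change was 0.28 (SE 0.11, adjusted p = 0.192).

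The remaining genes overlapped between the rd10 groups. Fcgr1 was at 5.59, 4.34 and 3.01 FPKM with MSC-EVs, Fcgr4 at 3.21, 4.44 and 1.94, and Syk at 1.36, 2.01 and 1.25, with log2 fold changes of 0.14, 0.12 and 0.07 and adjusted p of at least 0.86. Fcer1g was at 26.32, 25.27 and 12.17 FPKM (log2 fold change -0.14, SE 0.31, adjusted p = 0.85). For each of these 4 genes the sign turned when a single library was left out. In all, 4 of the 9 genes (Fcgr3, Fgr, Treml2 and Cd300lf) had every MSC-EVs library above every NS library in CPM, against 12.8% of all genes tested.

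MSC-EVs replicate 3, the lowest of its group in FPKM for all of the 9 genes but Fgr, was also the deepest library and the only library of its group without Y-linked expression. Set against NS without replicates 1 and 2, it gave log2 fold changes of 1.32 for Fgr, 1.01 for Treml2, 0.61 for Cd300lf, 0.12 for Fcgr3, -0.04 for Fcgr2b, -0.20 for Syk, -0.56 for Fcgr4, -0.62 for Fcgr1 and -0.90 for Fcer1g, with adjusted p of 0.0729 or more for all 9 genes. In this fit the lone library was assumed to vary as the NS libraries do. Within the MSC-EVs group, depth and Y-linked expression cannot be told apart, and their part in these values was not tested. The NS libraries had only 7 to 10 Y-linked counts, so treatment and Y-linked expression are partly confounded between the rd10 groups. The summed microglia markers were also lowest in MSC-EVs replicate 3, at 564, 671 and 389 CPM in MSC-EVs replicates 1, 2 and 3.

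Markers of other myeloid cells were set beside the genes that were higher with MSC-EVs. The 12 neutrophil markers summed to between 5.05 and 8.28 CPM in NS and between 8.74 and 9.49 with MSC-EVs, and most of this was Csf3r, the only gene of the list that was tested (log2 fold change 0.35, adjusted p = 0.406). Camp, Elane, Ltf, Ly6g, Mpo and Ngp stayed at or under 3 counts in each library. The 12 monocyte and macrophage markers summed to between 109 and 141 CPM in NS and between 154 and 194 with MSC-EVs, most of it Itga4 (log2 fold change 0.51, adjusted p = 0.0401). None of the 11 tested was differentially expressed by edgeR's test, 2 had an unadjusted p under 0.05, and DESeq2 called 1, Arg1. The part of these cells in the values of Fgr, Treml2, Cd300lf and Fcgr2b was not tested.

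**Figure D4:**
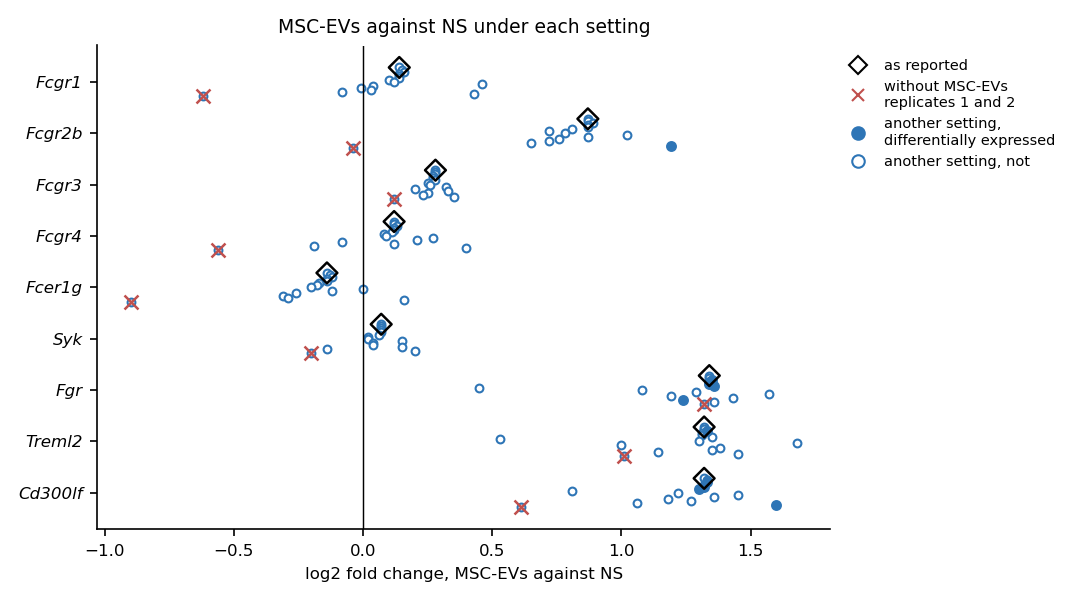
Log2 fold change of each gene for MSC-EVs against NS (horizontal axis) under each alternative setting, with diamonds for the reported value, crosses for the value without MSC-EVs replicates 1 and 2, and filled points where the gene was differentially expressed. Fcgr3, Fgr, Treml2 and Cd300lf stay above 0 under each setting, and Fcgr1, Fcgr2b, Fcgr4, Fcer1g and Syk have values on both sides of 0.

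Relative to the summed microglia markers, Fcgr2b, Fgr, Treml2 and Cd300lf were higher in every MSC-EVs library than in every NS library, by 1.72-fold, 2.55-fold, 2.76-fold and 2.42-fold, against 2.09% of all genes tested. Each had an exact permutation p of 0.1 (two-sided, the smallest possible) and an adjusted p of 0.169, so no call can be made. For Fcgr2b this depended on the divisor. Divided by Csf1r alone, MSC-EVs replicate 3 (12.4 over 61.8 CPM) was below NS replicate 2 (12.7 over 55.1 CPM). Fgr, Treml2 and Cd300lf still did not overlap with Csf1r as divisor. No microglia marker of 15 was differentially expressed between the rd10 groups (median log2 fold change 0.05), 2 had an unadjusted p under 0.05, and DESeq2 made no call among them.

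No gene of the pathway lists was differentially expressed between the rd10 groups by edgeR's test or by DESeq2. Unadjusted p was under 0.05 for 3 of 11 kinases, 7 of 23 genes downstream of Syk, 7 of 27 inhibitors, 1 of 3 immunoglobulin genes (Jchain) and none of the other lists. The median log2 fold changes were -0.11 for the other Fc receptors, -0.20 for the other ITAM adaptors and receptors, 0.32 for the CD300 relatives, 0.23 for the kinases, 0.14 downstream of Syk and -0.00 for the inhibitors, beside -0.00 for all genes tested. Tyrobp (log2 fold change -0.23), Trem2 (-0.16), Plcg2 (0.13) and Ptpn6 (0.23) had adjusted p of 0.496 or more. Lyn, Inpp5d and Btk had log2 fold changes of 0.43, 0.40 and 0.54 with adjusted p of 0.156, 0.267 and 0.476. Adjusted p was under 0.05 for Cbl, a ubiquitin ligase that ends Syk signalling, and for the receptor Cd33. Both were picked after their values were seen. Their log2 fold changes of 0.51 and 0.71 (adjusted p = 0.0261 and 0.0497) stayed under the fold limit.

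The third comparison set MSC-EVs-treated rd10 against WT, and it shares its libraries with the comparisons above. All 9 genes were higher, by 6.13-fold for Cd300lf to 48.7-fold for Fcgr2b, and every MSC-EVs library was above every WT library. Of 14623 genes tested, 9% were differentially expressed and higher, 3.2% lower, and 31.9% had every MSC-EVs library above every WT library. In NS against WT the share lower had been 3.56%. The median log2 fold change of the 9 genes was 3.74.

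The log2 fold changes against WT stood beside each other as follows. They were 4.73 with NS and 5.61 with MSC-EVs for Fcgr2b, 1.58 and 2.93 for Fgr, 3.20 and 4.52 for Treml2, and 1.29 and 2.62 for Cd300lf. For Fcgr1 they were 3.25 and 3.40, for Fcgr3 3.94 and 4.23, for Fcgr4 3.99 and 4.12, for Syk 2.62 and 2.70, and for Fcer1g 3.87 and 3.74. The adjusted p against WT with MSC-EVs was 0.000436 or less for each gene. With MSC-EVs the order of FPKM means was Fcer1g, Fcgr3, Fcgr2b, Fcgr1, Fcgr4, Cd300lf, Syk, Treml2 and Fgr, and only Fcgr3 and Fcgr2b, Fcgr2b and Fcgr1, and Syk and Treml2 did not overlap as neighbours. Relative to the summed microglia markers, 6 of the 9 genes were higher in every MSC-EVs library than in every WT library, against 1.87% of all genes tested.

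In the pathway lists, 2 of 4 other Fc receptors, 4 of 5 other ITAM adaptors and receptors, 3 of 3 CD300 relatives, 5 of 11 kinases, 16 of 23 genes downstream of Syk and 9 of 22 inhibitors rose. The genes with the largest fitted rises were Cd300ld, at least 4.06-fold against no count in WT, Cd22 (183 counts against 1, a ratio of 106 with a 95% exact counting interval of 18.8 to 4205), Siglec1 (67.1-fold), Clec7a (35.9-fold), Rac2 (19.4-fold) and Fcrls (18.2-fold). The rise of Siglec1 rested on 1, 5 and 3 counts in the WT libraries. Sla2, an adaptor that damps receptor signalling, and the immunoglobulin joining chain Jchain both picked after their values were seen, were the genes of these lists that fell (log2 fold changes -1.39 and -1.14). Tyrobp rose 10.2-fold, Trem2 8.71-fold, Lyn 8.79-fold, Btk 9.75-fold, Plcg2 2.92-fold, Ptpn6 4.46-fold and Inpp5d 7.78-fold.

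Since activating and inhibitory receptors compete for the same IgG, the composition of the Fc gamma receptor transcripts was followed. Summed over Fcgr1, Fcgr3, Fcgr4 and Fcgr2b, FPKM was between 1.56 and 1.8 in WT, between 30 and 35.8 in NS and between 31.1 and 49.3 with MSC-EVs. Fcgr3 made up the largest share in every library, from 45.4% to 72.4%. Fcgr2b made up 15.1%, 21.7% and 5.13% in the WT libraries, 25%, 25.6% and 21.3% in the NS libraries and 35.4%, 36.8% and 24% in the MSC-EVs libraries. MSC-EVs replicate 3 again lay with the NS libraries.

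**Figure D5:**
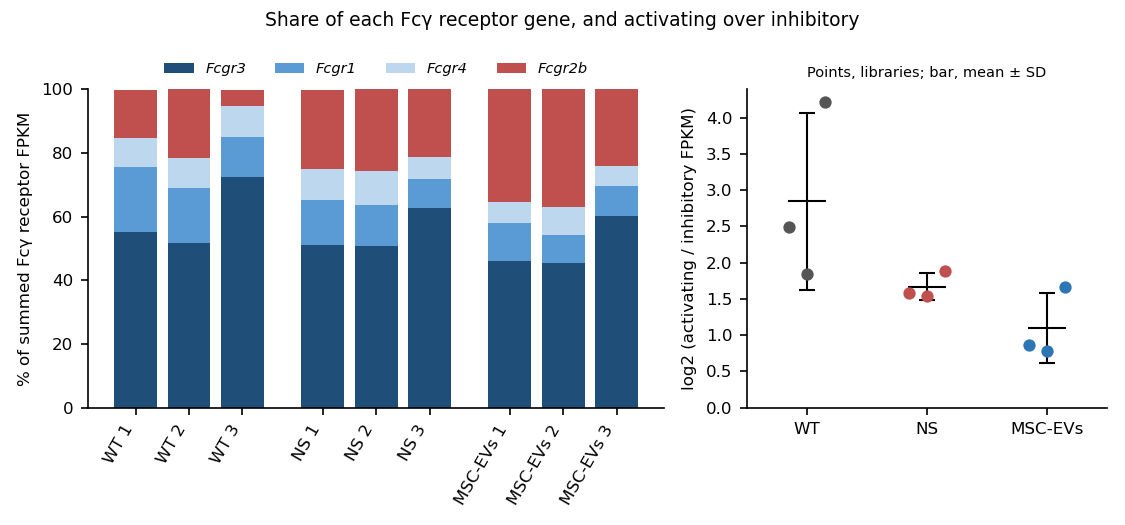
Left, share of the summed Fc gamma receptor FPKM (%) taken by each receptor gene in each library. Right, log2 of activating (Fcgr1, Fcgr3 and Fcgr4) over inhibitory (Fcgr2b) FPKM by library, with mean and SD of 3 libraries, from 0.78 in MSC-EVs replicate 2 to 4.21 in WT replicate 3.

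The ratio of activating to inhibitory FPKM was 5.62, 3.62 and 18.5 in WT, 2.99, 2.91 and 3.70 in NS, and 1.83, 1.72 and 3.16 with MSC-EVs. WT replicate 3, with 6 counts and 0.08 FPKM of Fcgr2b, set the spread of the WT group in FPKM. On the log2 scale the mean was 2.85 ± 1.22 (SD, n = 3) in WT, 1.67 ± 0.19 in NS and 1.10 ± 0.48 with MSC-EVs. The differences were -1.18 for NS against WT (exact permutation p = 0.2, two-sided), -0.57 for MSC-EVs against NS (p = 0.3, exact) and -1.75 for MSC-EVs against WT (p = 0.1, exact, the smallest possible), each with an adjusted p of 0.3. Without WT replicate 3 the differences from WT were -0.50 for NS and -1.07 for MSC-EVs. In CPM every WT ratio (5.8, 3.2 and 8) was above every NS ratio (2.47, 2.32 and 2.99). The log2 differences in CPM were -1.04 for NS against WT, -0.56 for MSC-EVs against NS and -1.60 for MSC-EVs against WT. The p-values given are for FPKM only. The ratio was thus not shown to differ between groups, and the sequence that Fcgr2b and Fcgr3 share enters both of its sides.

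The genes whose log2 CPM ran most like each member's over the 9 libraries, by Pearson r, followed the gap between WT and rd10. Fcer1g ran with Tor4a, Oas1a and Itgb2 (r of at least 0.997), Syk with the integrin gene Itgb2, Bcl2a1d and the complement gene C1qc (at least 0.994), and Fcgr4 with Clec7a, Chil1 and Ccl5 (0.997). Fcgr1 ran with Lgals9, Il10ra and Gbp3 (0.996), Fcgr3 with Serpina3n, Clu and Mt2 (at least 0.998), and Fcgr2b with Rgs17, Mmp14 and Irf8 (at least 0.997). For Fgr, Treml2 and Cd300lf the closest genes were Fmn1, Egln3 and Bmpr2, with 0.974, 0.987 and 0.981. These values describe 9 libraries that share groups and differ in depth, over 14908 genes compared.

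Within the 6 rd10 libraries, which leave out the gap to WT, the members did not all move together. Fcgr2b and Cd300lf ran closely (r = 0.95), as did Fcgr3 and Treml2 (r = 0.95), Fgr and Cd300lf (r = 0.88), Fcgr1 and Fcgr4 (r = 0.87) and Fcgr1 and Fcer1g (r = 0.86). Fcer1g had r of -0.15 with Fgr, -0.02 with Treml2 and 0.18 with Fcgr3. Fcgr4 had its closest partners in Ugt1a7c, the histocompatibility gene H2-D1 and Spi1 (0.984 to 0.994), and Fcer1g in Stab1, Cybb and Tor4a (0.983 to 0.993). With 6 libraries in 2 groups these are descriptions only.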

How the data were processed

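RNA-seq of 9 retinal libraries was analysed. Per the labels, mRNA was enriched with oligo(dT). The table deposited by the authors holds, for every gene in each library, an estimated count that is not scaled to depth. It also holds the FPKM that the authors scaled to transcript length and depth. The submitters' processing notes name fastp, Bowtie2, HISAT2, RSEM and StringTie 1.3.1 without their roles, and the genome build is not given in the sources used here; strand use in counting is not stated. The labels and the paper call the injection intravenous in places, and the series text places it in the vitreous. Estimated counts were rounded to whole numbers, since they had decimals in 9.2% to 11.7% of the genes of a library. Groups were compared in pairs with edgeR 4.0.16 in R 4.3.3 (filterByExpr, TMM, glmQLFit with robust estimation, glmQLFTest, Benjamini-Hochberg adjustment over all genes tested); all 9 genes passed the filter in each comparison, a filter that a gene can pass through its higher group. CPM used TMM-scaled library sizes. Alternatives were DESeq2 1.42.0, its size factors in edgeR, limma 3.58.1 on log2(FPKM + 1) and log2(FPKM + 0.1), no filter, all 9 libraries in one fit, a replicate block, no fold limit, and libraries left out. Ratios used exact permutation tests (scipy 1.17.1), with 0 counts set to 0.5. The tests were tried on simulated counts with 200 changed genes. Members and gene lists were chosen with earlier results of these data known. Named beside the 9 genes were Tyrobp, Trem2, Lyn, Btk, Plcg2, Ptpn6 and Inpp5d, up to 6 list genes per comparison with the largest called change, and for each member the 3 genes most like it; other genes were chosen after their values were seen, and some genes of the lists are counted but not reported here by name. Positions came from GENCODE M21, which holds 22232 of the 22337 identifiers. A total of 1 count stood for 0.016 to 0.0513 CPM, and intervals cover counting error only.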

Additional observations from a re-analysis of the deposited data

How the results depend on the processing

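Against WT, the 9 genes remained differentially expressed in the same direction under every alternative but limma on log2(FPKM + 1). There, 986 genes passed for NS (1863 as reported) and 1006 for MSC-EVs (1784), with 6 and 7 of the 9 genes; Fgr and Treml2 were lost in both, and Cd300lf with NS. Without a fold limit 8972 and 8117 genes passed. Between the rd10 groups, 9 genes passed as reported, 38 with the DESeq2 Wald test, 38 with all 9 libraries in one fit, 21 with the replicate block, 172 without a fold limit, 85 without the libraries with Y-linked counts, and 0 to 82 when single libraries were left out (0 without MSC-EVs replicate 1 or NS replicate 3, 82 without MSC-EVs replicate 2). Of the 9 genes, 3 passed with DESeq2, 1 without a filter (Fgr), 2 with all libraries in one fit and 2 with the replicate block (Fgr and Cd300lf), and 0 to 2 when single libraries were left out. The replicate numbers share no stated litter or day, and no pairing was used in the fits as reported. Correlations of same-numbered deviations between the rd10 groups were low, at 0.09, 0.17 and 0.27. Of these libraries 3 of 3 were closest to their own number, so whether the numbers pair the rd10 libraries was not settled. Signs between the rd10 groups turned for Fcgr1 (-0.01 without NS replicate 3, -0.08 without MSC-EVs replicate 2, -0.62 without the libraries with Y-linked counts), Fcgr4 (-0.08, -0.19 and -0.56 likewise), Syk (-0.14 without MSC-EVs replicate 2, -0.20 without the Y-linked libraries), Fcgr2b (-0.04 without the Y-linked libraries) and Fcer1g (0.16 without MSC-EVs replicate 3). When single libraries were left out, these log2 fold changes ran from -0.08 to 0.46 for Fcgr1, from -0.19 to 0.40 for Fcgr4, from -0.31 to 0.16 for Fcer1g and from -0.14 to 0.20 for Syk. The median log2 change of the 9 genes relative to the summed microglia markers (1.46, 0.27 and 1.27 for NS against WT, MSC-EVs against NS and MSC-EVs against WT) became -0.03 and 0.97 in the comparisons with MSC-EVs when Csf1r alone was the divisor, and ran from 1.09 to 1.5 and from 1.05 to 1.41 against WT when single libraries were left out. The causes were not tested. WT levels of Fcgr4, Fgr and Treml2 were limited by depth.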
